A study of Mus musculus with 2 samples.

Results

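The genes described here are 35 presynaptic genes, measured in mouse forebrain on embryonic day 11.5 of development. They encode the proteins that fill, dock, fuse and retrieve synaptic vesicles, and they were taken by gene name: every row of the gene tables whose stable identifier carries one of the 35 names in the GENCODE M21 annotation. All 35 were found among 43346 mouse gene identifiers, and the transcript tables list 179 transcripts for them. The study holds 1 group of 2 total RNA-seq libraries from strain B6NCrl, with no treatment, no mutant and no second tissue or age. Replicate 1 was made from the forebrains of 109 embryos and replicate 2 from those of 88, in pools of mixed sex that the labels number as biological replicates, so that no value belongs to a single animal. Spike-in RNA was added to 10 ng of input RNA per library. The tables hold 23165260 expected counts for replicate 1 and 33597028 for replicate 2.

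A synaptic vesicle fuses when the SNARE proteins of vesicle and plasma membrane zip together, complexins hold the assembled complex ready, and a synaptotagmin senses the calcium that enters with the nerve impulse. Active zone scaffolds place primed vesicles beside calcium channels, and dynamin with its partners pulls the spent membrane back. At this stage most forebrain cells are still dividing progenitors and the earliest neurons have only begun to form, so few mature synapses are known from this tissue; several of the same proteins are also known to serve membrane traffic in growing axons and in cells that are not neurons.

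RNA of nearly the whole set was present. In TPM, a level scaled for transcript length whose sum is the same in every table, 33 of the 35 genes stood at 1 or more in both libraries, beside a background of 58.6% of 21474 protein-coding genes. The exceptions were Syt2 and Sv2c. The 35 genes were chosen with earlier results of these data known, so their share beside the background is a description only. The level threshold mattered: 25 of the genes reached 5 TPM in both libraries and 11 reached 10 TPM. Among the 21474 protein-coding genes, 8461 reached 10 TPM in both. At 10 TPM the share of the set was thus below that of all protein-coding genes, unlike at 1 TPM. No background was counted at 5 TPM. The median gene of the set had 8.76 TPM in replicate 1 and 7.63 in replicate 2. Over all protein-coding genes the medians were 3.99 and 3.89, and over the 12581 protein-coding genes at 1 TPM or more in both libraries they were 20.6 and 20.6. Only 6 presynaptic genes (Syt11, Vamp2, Sypl, Rab3a, Nrxn3 and Rab3b) exceeded that last median on their mean level. The set was therefore detected broadly, and mostly at levels below those of the typical detected gene. In bulk tissue, a low level from few cells and a low level per cell cannot be told apart.

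**Figure D1:**
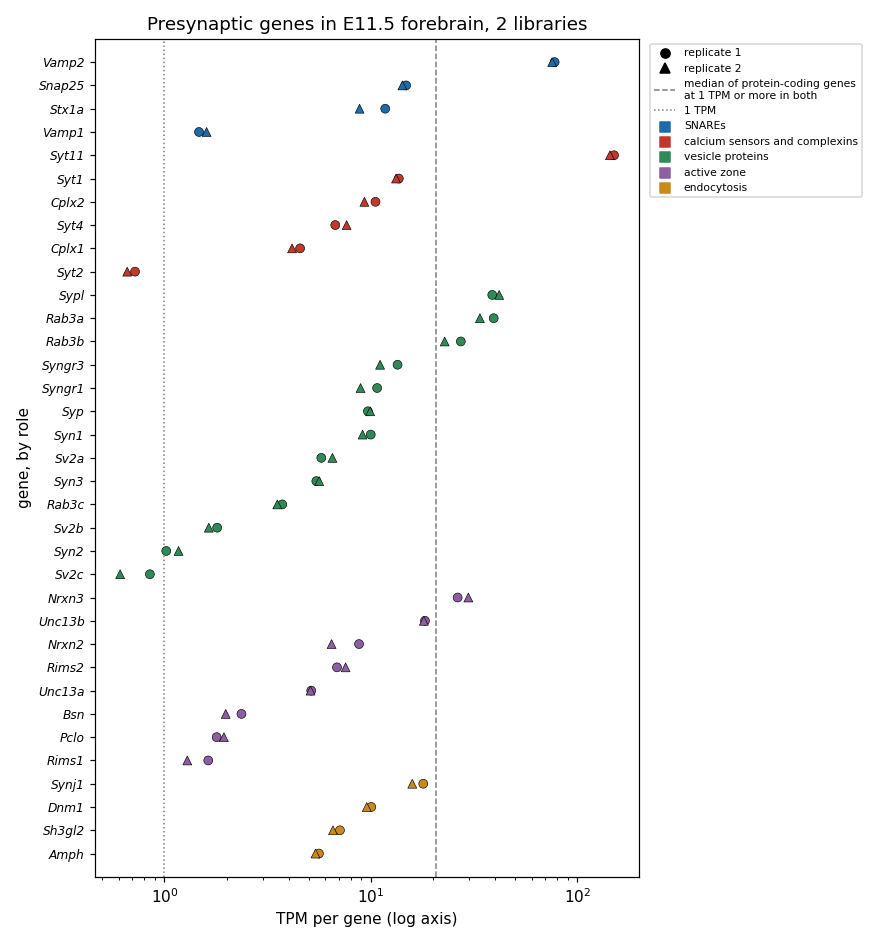
TPM of each of the 35 genes in replicate 1 (circles) and replicate 2 (triangles) on a log axis, grouped and coloured by role; the dashed line is the median of protein-coding genes at 1 TPM or more in both libraries and the dotted line is 1 TPM. Syt11 and Vamp2 lie far to the right, 6 genes lie beyond the dashed line, and Syt2 and Sv2c lie left of the dotted line in both libraries.

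The levels spanned a wide range and were concentrated in a few genes. Syt11, Vamp2, Sypl and Rab3a together made up 53.6% of the summed TPM of the set in replicate 1 and 54.1% in replicate 2, and Syt11 alone made up 26.3% and 26.4%. When the genes were ordered by mean level, 18 of the 34 neighbouring pairs had library values that did not overlap and 16 overlapped. Syt11 stood apart from Vamp2, and Vamp2 from Sypl, while Sypl and Rab3a overlapped. The long run from Syt1 down to Syn1, which holds Syngr3, Stx1a, Cplx2, Syngr1, Dnm1 and Syp, overlapped at each step, so neighbours in that run are not separated by 2 libraries. Genes further apart in it can be: Syt1 lay above Stx1a and all genes below it in both libraries without overlap.

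Among the SNAREs, the membrane proteins that drive fusion, the vesicle SNARE Vamp2 was the most abundant. Vamp2 (chr11:69088490-69092384, GRCm38) had 77.6 TPM in replicate 1 and 75.5 in replicate 2. Snap25 (chr2:136713453-136782428), which supplies a pair of helices from the plasma membrane side, had 14.8 and 14.2 TPM. Stx1a (chr5:135023482-135051100), the syntaxin that anchors the complex in the plasma membrane, had 11.7 and 8.81 TPM. Vamp1, the vesicle SNARE known best from spinal cord and brainstem neurons, had 1.47 and 1.60 TPM. The libraries did not overlap between any of these 4 genes, so the order Vamp2, Snap25, Stx1a, Vamp1 held in both. The vesicle partner thus stood well above both plasma membrane partners in RNA level.

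Snap25 is spliced with either of a pair of neighbouring exons of equal length, which change a stretch of the protein around the lipid-anchored cysteines; the upstream exon is known as the form of early development and the downstream exon as the form that prevails in the mature brain. The exons are printed here because the main Snap25 transcripts in these tables differ by them. Both are 118 bases long, coding, numbered exon 5 and separated by 196 bases; Snap25-202 holds the upstream one (chr2:136769743-136769860, plus strand) and Snap25-201 the downstream one (chr2:136770057-136770174, plus strand). The sequences come from the GENCODE M21 transcripts, and capitals mark the 31 positions at which the exons differ, an identity of 73.7%.
Upstream exon 5 (Snap25-202): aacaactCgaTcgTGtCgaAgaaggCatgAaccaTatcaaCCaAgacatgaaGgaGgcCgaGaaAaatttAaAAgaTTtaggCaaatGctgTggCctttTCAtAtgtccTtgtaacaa
Downstream exon 5 (Snap25-201): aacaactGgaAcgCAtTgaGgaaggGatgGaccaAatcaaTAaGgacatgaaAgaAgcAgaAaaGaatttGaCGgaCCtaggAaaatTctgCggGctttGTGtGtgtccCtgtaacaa

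Snap25-201 was assigned 9.70 TPM in replicate 1 and 9.16 in replicate 2, which is 65.5% and 64.5% of the gene's TPM. Snap25-202 was assigned 4.35 and 4.47 TPM, or 29.4% and 31.5%. The downstream form was thus given the larger share in both libraries, and both forms were present. In expected counts the mean shares were 72.6% and 15.4%. Exon use itself was not counted: the last exon of Snap25-201 runs 1077 bases further than that of Snap25-202, and reads in that stretch cannot be assigned to the shorter model, whatever exon 5 their molecule held.

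The remaining SNARE transcripts add detail. Vamp2-201, the model with 5 exons, had 63.9% and 60.6% of the Vamp2 TPM. Vamp2-202, which is annotated as coding but keeps the last intron of 622 bases and ends soon after it, had 23.1% and 22.9%, or 14.5% of the expected counts on average. Stx1a was divided differently in the libraries: the coding model Stx1a-201 took 18.7% of the gene's TPM in replicate 1 and 46.5% in replicate 2, and Stx1a-204, annotated as a target of nonsense-mediated decay, took 62.8% and 37.4%. These models share 8 of 10 exons exactly; in Stx1a-204 exon 9 starts 83 bases earlier and the first exon starts 78 bases later. The pools thus disagreed on which Stx1a model led, on 338 and 368 expected counts for the whole gene.

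In the group of calcium sensors and complexins, Syt11 led the whole set. Syt11 (chr3:88744700-88775164), a synaptotagmin that does not itself bind calcium and is known to act in membrane retrieval, had 151 TPM in replicate 1 and 144 in replicate 2, on 8276 and 11555 expected counts. Syt1 (chr10:108497650-109010982), the fast calcium sensor of forebrain synapses, had 13.7 and 13.2 TPM. Syt4, a synaptotagmin of peptide-containing vesicles, had 6.72 and 7.63 TPM. Syt2, the fast sensor known from hindbrain and spinal synapses, had 0.72 and 0.66 TPM. Of Syt1 and Syt2 only Syt1 was above 1 TPM, and Syt11 exceeded both.

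The complexins bind the assembled SNARE bundle and hold it until calcium arrives. Cplx2, the form widespread in forebrain, had 10.5 TPM in replicate 1 and 9.30 in replicate 2. Cplx1, the other main brain form, had 4.54 and 4.15. Cplx2 was above Cplx1 in both libraries, with no overlap. Syt11-201 carried 71.7% and 72.5% of the Syt11 TPM, and Syt11-205, a shorter coding model, carried 26.8% and 25.0%; in expected counts their mean shares were 89.2% and 8.74%. Syt1-201 carried 75.6% and 67.2% of the Syt1 TPM.

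The 13 vesicle proteins ranged from Sypl, at 38.7 and 41.8 TPM, to Sv2c, at 0.85 and 0.61. Among the Rab3 GTPases, which sit on vesicles and hand them to active zone scaffolds, Rab3a (chr8:70754679-70758677) had 39.3 and 33.7 TPM, Rab3b (chr4:108879063-108943324) had 27.3 and 22.8, and Rab3c had 3.72 and 3.52. The 3 Rab3 genes did not overlap with each other. Sypl (chr12:32953891-32979860), the relative of synaptophysin found on vesicles of many cell types, stood above Syp, the synaptophysin of neurons, at 9.67 and 9.92 TPM. Of the synaptogyrins, which are vesicle proteins with the same membrane topology, Syngr3 had 13.5 and 11.1 TPM and Syngr1 had 10.7 and 8.91.

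The synapsins, which tether vesicles in the reserve cluster, followed a clear order. Syn1 (chrX:20860511-20921004) had 9.98 TPM in replicate 1 and 9.11 in replicate 2. Syn3, the synapsin known from immature and newborn neurons, had 5.44 and 5.62 TPM. Syn2 had 1.02 and 1.17 TPM, on 54 and 92 expected counts. The order Syn1, Syn3, Syn2 held in both libraries. The SV2 proteins, transporter-like glycoproteins of the vesicle, also ranked the same way in both: Sv2a had 5.75 and 6.51 TPM, Sv2b had 1.80 and 1.64, and Sv2c was below 1 TPM. In each of the Rab3, synapsin and SV2 families the members were thus at unequal levels that kept their order.

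Syn1 is the textbook example of a neuronal gene whose promoter carries an RE1 element, the site bound by the repressor REST that keeps neuronal genes low in progenitors. Rest itself had 19.6 TPM in replicate 1 and 20.0 in replicate 2. RefSeq promoter windows of GRCm38.p6, running from 250 bases before a gene's start to 50 after it, were found for 28 of the 35 genes (39 windows). They were searched on both strands for the RE1 letters TTCAGCACC, any 2 bases, then GGACAG, which overlaps none of the other motifs searched. The stretch with the best match is shown for the Syn1 start (chrX:20921094-20921168, minus strand), with the site in capitals. Counted from 1 at the motif's first base, it differs from the motif by A14T, and it lies from 232 to 216 bases before the start.
Syn1 promoter: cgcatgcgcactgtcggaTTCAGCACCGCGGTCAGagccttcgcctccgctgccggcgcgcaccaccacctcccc

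With up to 2 mismatches allowed, Syn1 was the only one of the 28 genes with a match. That was 2.56% of the 39 windows, against 0.183% of windows of protein-coding genes and 0.143% of all 32851 windows. With up to 3, Syt2 (T1C, C3G and A4C) and Unc13a (A14G, A16G and G17C) were added. The share was then 7.69% of the 39 windows, against 1.20% for protein-coding genes and 1.17% of all windows. The number of mismatches was set after the matches had been seen. Syt2 was among the lowest genes of the set and Syn1 in its middle. The Syt2 match lies before the upstream of its starts. Syt2-201, which begins at the other start, held 97.8% of the Syt2 expected counts on average. The Syt2 level can therefore not be set against that match. Of other motifs, the GC box GGGCGG was in 26 of the 39 windows (66.7%, against 46.2% of windows of protein-coding genes), TATAAA in 3 (7.69% against 12.6%) and the cyclic AMP element TGACGTCA in 2, those of Syn1 and Sh3gl2 (5.13% against 2.23%). The median GC content of the windows was 61.3%, against 56.3% for protein-coding genes. A match describes letters only, and no binding was measured.

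The active zone group had the lowest median level of the 5 roles. Nrxn3 (chr12:88722876-90334935), a presynaptic adhesion receptor, was its most abundant gene at 26.3 and 29.7 TPM, and Nrxn2 had 8.76 and 6.45. Unc13b (chr4:43058953-43264871), the priming factor also called Munc13-2, had 18.3 and 18.1 TPM, while Unc13a, the priming factor that most mature excitatory synapses need, had 5.14 and 5.10. Unc13b was above Unc13a in both libraries. Rims2 had 6.85 and 7.54 TPM and Rims1 1.63 and 1.29; both encode scaffolds that link Rab3 on vesicles to calcium channels. The giant scaffolds Bsn, at 2.36 and 1.98 TPM, and Pclo, at 1.79 and 1.94, were low per length, although their long transcripts gave 430 and 523 expected counts for Bsn and 370 and 646 for Pclo.

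The endocytosis genes spanned the narrowest range of the 5 roles. Synj1, the phosphatase that strips the clathrin coat, had 17.9 TPM in replicate 1 and 15.9 in replicate 2. Dnm1 (chr2:32308471-32353338), the neuronal dynamin that cuts vesicles from the membrane, had 10.0 and 9.55 TPM. Sh3gl2, endophilin A1, had 7.08 and 6.55 TPM, and Amph, amphiphysin, had 5.60 and 5.39. All 4 stood above 5 TPM in both libraries with no overlap between them. The lowest and highest of their mean levels were 5.50 and 16.9 TPM, against 1.54 and 76.6 for the SNAREs.

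On the scale of log2(TPM + 1), the median level was 3.72 ± 0.15 for the SNAREs (SD, n = 2), 3.36 ± 0.08 for the vesicle proteins, 3.24 for the calcium sensors and complexins, 3.20 ± 0.06 for the endocytosis genes and 2.77 ± 0.03 for the active zone genes. For the calcium sensors and complexins the libraries gave the same median to 2 decimals. The active zone stood below the other roles in both libraries. Over all protein-coding genes the median was 2.30, and over those at 1 TPM or more in both libraries it was 4.44. The roles hold 4 to 13 genes with wide ranges, so these medians describe the listed genes only, and the order of the other 4 depended on the setting. With protein-coding transcripts alone the SNARE median became 2.95, below that of the endocytosis genes (3.05), and the active zone median became 1.88. Length went with level only loosely: across the 35 genes the Spearman correlation of genomic span with mean TPM was -0.36 and the Pearson correlation of their logarithms -0.37, a description of genes that share 2 libraries.

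For several genes a large part of the TPM belonged to transcripts that are not annotated as coding. By the M21 transcript types, the median detected gene of the set had 99.0% of its TPM from protein-coding transcripts, against 98.1% for all detected protein-coding genes. In 4 of the 33 detected genes the share was under 50%, against 8.04% of detected protein-coding genes, a share not far from the background that is given as a description. The 4 were Nrxn3, Stx1a, Nrxn2 and Unc13a, and 3 of them belong to the active zone. In expected counts the share was under 50% in 2 of the 33, Nrxn3 (33.7% on average) and Stx1a (35.6%), against 4.41% of detected protein-coding genes, while Nrxn2 had 71.4% and Unc13a 85.9%. This split was looked at after the tables had been seen.

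Nrxn3 was the extreme. Coding transcripts supplied 17.5% of its TPM in replicate 1 and 15.2% in replicate 2. The largest part, 61.3% and 53.1%, was Nrxn3-204 (chr12:88722888-88850849), a retained-intron model of 4 exons at the 5′ end whose last exon runs 541 bases past a splice site. The long coding model Nrxn3-205 had 2.89 and 3.10 TPM. On coding transcripts alone Nrxn3 moved from the 5th to the 21st place of the set, at 4.61 and 4.52 TPM. In expected counts Nrxn3-204 held 41.2% on average and Nrxn3-205 27.8%, so the short model of the gene's start was the largest on both scales but held the majority on the TPM scale only.

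Stx1a, on coding transcripts, moved from the 12th to the 25th place, at 2.19 and 4.09 TPM. Nrxn2 had 35.1% and 46.4% of its TPM from coding transcripts, and moved from the 18th to the 26th place at 3.07 and 2.99 TPM. Nrxn2-213, a processed transcript of 576 bases, held 39.3% and 24.2% of the Nrxn2 TPM but 7.17% of its expected counts on average. The retained-intron model Nrxn2-210 held 17.8% and 26.7% of the TPM, and the coding model Nrxn2-202 25.0% and 18.6%. Unc13a had 38.7% and 45.4%; its full-length model Unc13a-201 held 39.9% of the TPM in replicate 2 but 85.5% of the expected counts on average, because the retained-intron model Unc13a-206 is short (944 bases against 10255). For Unc13a the picture thus depends on whether molecules or reads are counted. Unc13b, by contrast, had 78.9% and 73.9% of its TPM from coding transcripts, and Unc13b-201 alone 69.6% and 67.0%, so that it stayed above Unc13a with 14.4 and 13.3 TPM against 1.99 and 2.32.

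**Figure D2:**
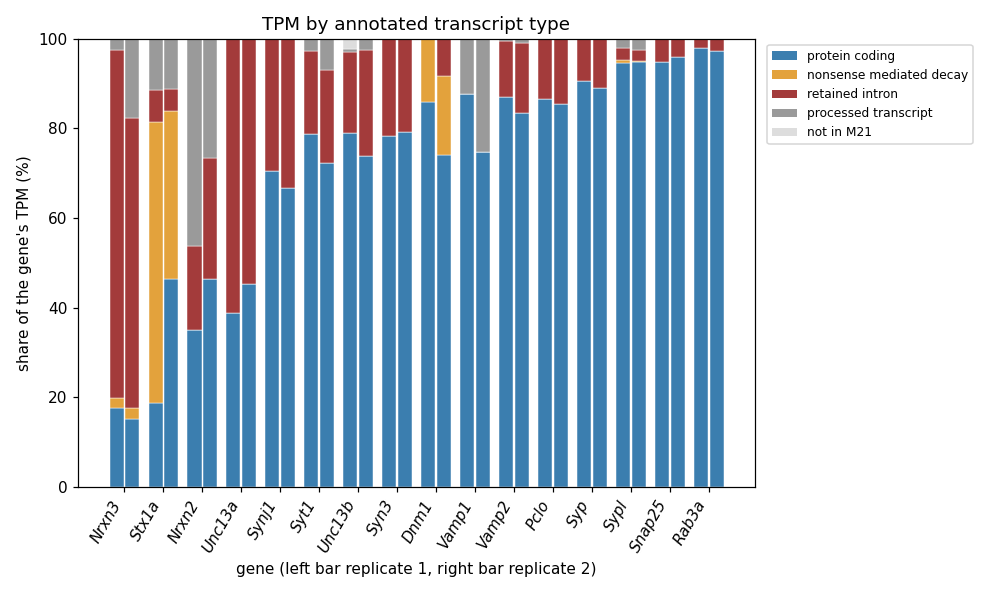
Share of each gene's TPM by annotated transcript type, in percent, for the 16 detected genes with a mean coding share under 98%; the left bar of each pair is replicate 1 and the right bar replicate 2. Nrxn3, Stx1a, Nrxn2 and Unc13a have less than 50% from protein-coding transcripts in both libraries, and the type that fills the rest differs: retained introns in Nrxn3 and Unc13a, a decay target in Stx1a.

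Neurexin genes are read from an upstream promoter, which gives the long alpha form, and from an internal one, which gives the short beta form. Among coding Nrxn3 transcripts, those with upstream starts had 2.89 and 3.10 TPM and those with the internal start 1.34 and 1.26, so the upstream class led in both libraries. Among coding Nrxn2 transcripts, the upstream class had 0.85 and 1.76 TPM and the internal class 2.22 and 1.23, so the libraries disagreed. In replicate 2, 0.93 of the upstream TPM lay on Nrxn2-209, a model of 648 bases with 11.3 expected counts. Replicate 1 had none on it. Without that model the internal class led in both libraries. For Syn1, Syn1-201 had 67.6% and 56.1% and Syn1-202 32.4% and 43.9%; they start 86 bases apart, and the last of 13 exons starts 38 bases earlier in Syn1-201. In Synj1, the retained-intron model Synj1-201 had 26.2% and 27.8% beside 30.3% and 28.7% for the coding model Synj1-203, while in expected counts their mean shares were 18.3% and 53.0%. In Dnm1, Dnm1-202 had 55.9% and 40.6%, the only model of that gene above 20% on average. Amph had all of its TPM on the single model Amph-201.

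In the other detected genes the leading coding models differed in how well the libraries agreed. Rab3a-201 had 61.6% and 68.9% of the Rab3a TPM and Rab3a-204 29.9% and 21.2%, and Rab3b-201 had 85.6% and 90.2%. Sypl-201 had 76.7% and 78.1%, and Sv2b-202 had 75.0% and 72.6% beside 25.0% and 27.4% for Sv2b-201. Syn3-201 had 56.3% and 54.1% and Syn3-202 22.0% and 25.1%. In these 5 genes the same model led in both libraries. Syn2, with the fewest counts of the detected genes, changed its leader: Syn2-201 had 57.8% in replicate 1 and 36.8% in replicate 2, and Syn2-202 had 42.2% and 63.2%. Vamp1-203 had 77.4% and 39.6%, the remainder in replicate 2 going mainly to Vamp1-201 at 35.2%.

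The active zone scaffolds were spread over long and short models. Bsn-201 had 53.4% and 54.0% of the Bsn TPM and Bsn-202, a coding model of 7496 bases against 15938, had 46.6% and 46.0%. Pclo-202 had 54.5% and 68.6%, and the shorter Pclo-204 had 32.0% and 17.0%. Rims2-202 had 61.8% and 75.2% and Rims2-201 38.2% and 24.8%. Rims1 had 3 models above 20% in both libraries, led by Rims1-207 at 41.4% and 36.4%. By expected counts these shares move with length: Bsn-202 held 28.8% on average, Pclo-204 11.6%, and Rims1-207 23.4% and Rims1-202 15.0%, with the longer Rims1-201 leading at 43.0%. Synaptogyrin 1 showed the same effect of length as Unc13a: Syngr1-202, of 819 bases, had 86.6% and 82.0% of the TPM but 49.9% of the expected counts on average.

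Many of these genes have a relative of the same family that is known outside neurons, and 10 such pairs were set side by side by TPM. The labels neuronal and broadly expressed were assigned to the pairs, and the cells that made each RNA were not measured. In 7 of the 10 the neuronal gene was below its broadly expressed relative on mean levels. Sh3gl1 (endophilin A2), at 101.4 and 98.7 TPM, was 14.7 ± 0.53 times as high as Sh3gl2 (SD, n = 2). Dnm2, the ubiquitous dynamin, was 5.66 ± 0.24 times as high as Dnm1, with 55.2 and 55.7 TPM. Bin1, the amphiphysin of muscle and other tissues, was 5.41 ± 0.08 times as high as Amph. These 3 endocytosis pairs had the widest gaps in favour of the general form in each library, whereas the remaining endocytosis pair, Synj1 and Synj2, went the other way.

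Among membrane proteins of vesicles and SNAREs the gap was smaller. Sypl was 4.11 ± 0.15 times as high as Syp, Syngr2 2.80 ± 0.15 times as high as Syngr1, and Snap23, the SNARE of general secretion, 2.67 ± 0.26 times as high as Snap25. Vamp2 and Vamp3 could not be ordered: Vamp3 had 76.0 and 86.4 TPM, below Vamp2 in replicate 1 and above it in replicate 2. In 3 pairs the neuronal gene was higher. Synj1 was 20.2 ± 3.0 times as high as Synj2, which had 0.99 and 0.71 TPM, and Rab3a was 5.74 ± 0.04 times as high as Rab3d. Stx1a was 1.11 ± 0.01 times as high as Stx4a, and on coding transcripts alone it was the lower one, at 0.69 times. The coding TPM of Stx1a was 2.19 in replicate 1 and 4.09 in replicate 2, so the 0.69 rests on libraries that disagree.

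**Figure D3:**
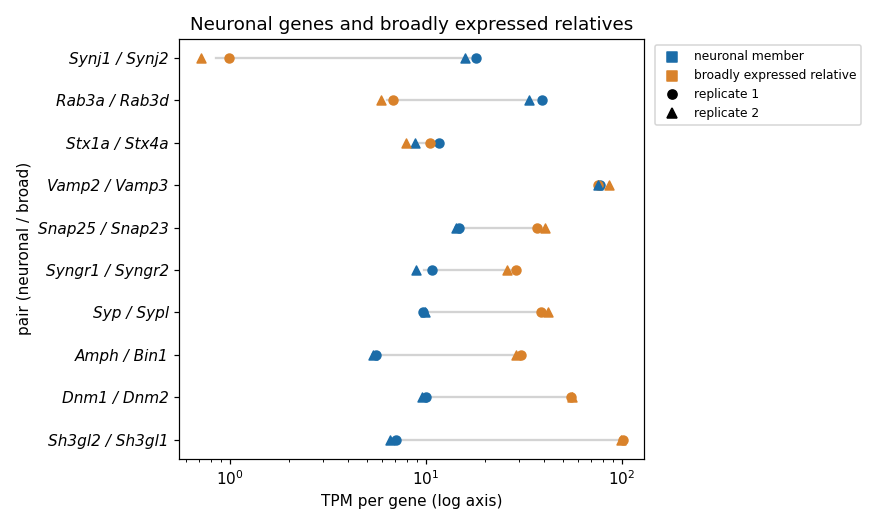
TPM per gene on a log axis for 10 pairs of a neuronal gene (blue) and a broadly expressed relative (orange), with circles for replicate 1 and triangles for replicate 2; grey lines join the means. The blue symbols lie left of the orange ones in the 6 lowest pairs, the Vamp2 and Vamp3 symbols overlap, and Synj1, Rab3a and Stx1a lie right of their relatives.

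A further 50 genes of presynaptic function, not among the 35, were read for context. Of these, 41 had 1 TPM or more in both libraries and 17 had 10 or more. Among all 21474 protein-coding genes, 12581 had 1 TPM or more in both and 8461 had 10 or more. The share of these 50 genes was thus above that of all protein-coding genes at 1 TPM and below it at 10 TPM. The 6 highest were Napa (128 and 121 TPM), the adaptor that recycles SNARE bundles, Tprgl (107 and 99.3), a vesicle protein, Dnajc5 (81.5 and 81.0), a vesicle chaperone, Ap2a2 (79.6 and 80.4), a clathrin adaptor subunit, Nsf (41.6 and 48.5), the ATPase that pulls SNAREs apart, and Itsn1 (46.8 and 42.3), an endocytic scaffold. The 3 lowest were Syt10 (0.11 and 0.05 TPM), Cplx3 (0.10 and 0.02) and Cplx4, the complexins of retinal ribbon synapses among them. Cplx4 had 0 counts in each library, and a count of 0 allows up to 3 counts, or 0.130 CPM in replicate 1 and 0.0893 in replicate 2, for counting error only.

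The cell type behind these levels was checked against marker genes. All 10 markers of newborn neurons were detected, with Tubb3 at 506 and 439 TPM and Dcx at 63.7 and 62.7, and all 6 progenitor markers, with summed levels of 1934 and 1961 TPM. Of 5 markers of mature neurons 4 were detected, summing to 41.1 and 35.8 TPM, with Nefh at 0.17 and 0.14. Other sources of presynaptic RNA were low or partly present: 4 of 9 markers of peripheral sensory neurons were detected (Isl1 at 26.9 and 27.4 TPM, with Prph, Avil and Tlx3 all under 0.3), 5 of 7 neuroendocrine markers (Scg3 at 28.0 and 28.8 TPM) and 1 of 4 retina markers. Isl1 and Scg3 are also made by forebrain neurons. The pools also held blood, vessel and mesenchyme RNA, with all 4 erythroid markers (summing to 10905 and 11608 TPM), all 3 endothelial markers (47.3 and 47.9) and all 3 mesenchyme markers (439 and 459) detected. Neither olfactory nor gonadotropin-releasing hormone neuron marker was detected in both libraries, and the part of each source in the presynaptic levels was not tested.

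The libraries differed little in these genes. Ratios of replicate 2 to replicate 1 were taken on rounded expected counts scaled by the trimmed mean of M-values, with exact 95% intervals that cover counting error only. A 2-fold difference or more was met by 1 of the 35 genes, against 6.36% of the 18297 genes with 10 or more counts summed and 1.31% of those with 50 or more, the lowest sum among the 35 being 88. It was Sv2c, at 54 and 34 counts, with a log2 ratio of -1.19 (-1.86 to -0.56). In TPM, Sv2c had 0.85 and 0.61, a gap under 2-fold. Replicate 2 placed 0.30 of that TPM on Sv2c-202, a model of 1036 bases, from 6.17 counts. Among genes with at least 100 counts the largest ratios were those of Stx1a at -0.41 (-0.63 to -0.19), Syt2 at 0.41 (-0.13 to 0.98) and Nrxn2 at -0.36 (-0.60 to -0.12). For Syt2 the ratio and the TPM point opposite ways, since replicate 1 placed part of its TPM on a model of only 383 bases.

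Small differences leaned to 1 side. In 26 of the 35 genes the ratio was below 0, against 50.7% of genes with 50 or more counts summed, and the median ratio was -0.08 on the log2 scale. The interval excluded 0 in 11 genes, of which 10 were lower in replicate 2 (among them Stx1a, Nrxn2, Rab3b at -0.29 and Rab3a at -0.24) and 1, Pclo, was higher at 0.27 (0.08 to 0.46). Over genes with 50 or more counts summed, the interval lay below 0 in 18.8% and above 0 in 18.8%. Of the 10 markers of newborn neurons, 7 were lower in replicate 2, with a median of -0.11 over the 10. The 10 summed to 1469 and 1347 TPM. Map2 was higher at 0.10 (0.06 to 0.15), and Elavl4 at 0.04 and Dcx at 0.01 had intervals that included 0. The markers of mature neurons were lower in 5 of 5 cases, with a median of -0.12, but each of their intervals included 0. Of the other presynaptic genes, 30 of the 46 with 10 or more counts summed were lower, with a median of -0.04. Progenitor markers were lower in 4 of 6 cases with a median of -0.02, Sox2 among them at -0.24 (-0.33 to -0.15). The part of the neuron content of each pool in these ratios was not tested, and 1 library on each side leaves no replicate check of them.

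**Figure D4:**
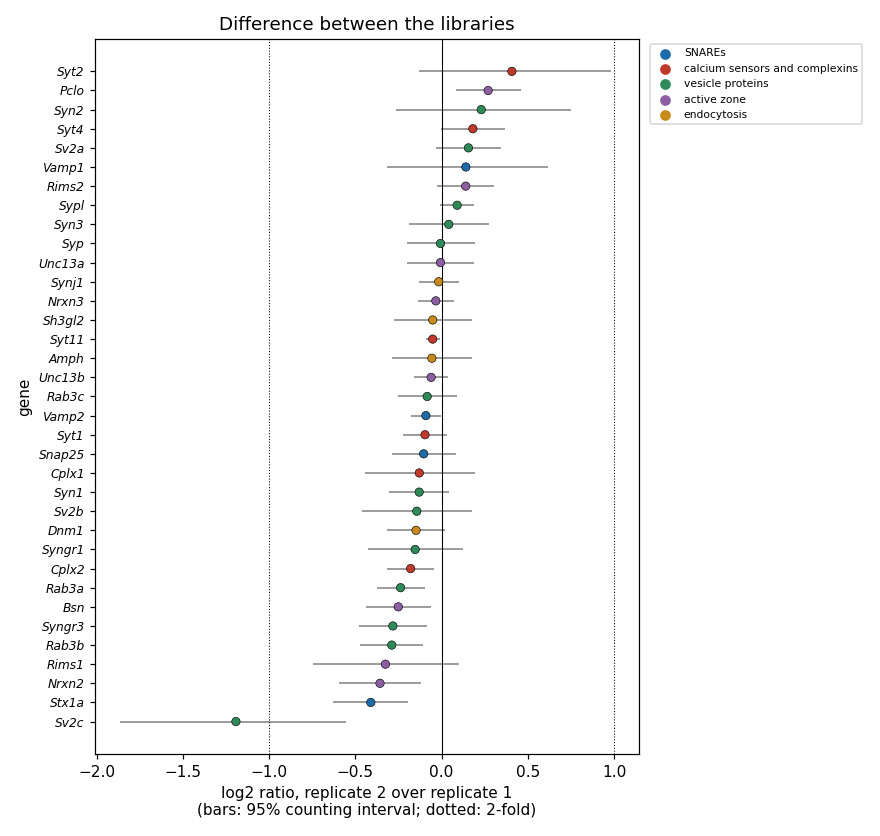
Log2 ratio of replicate 2 to replicate 1 for each of the 35 genes, with the 95% counting interval as a bar and the role as colour; the dotted lines mark 2-fold. Sv2c is the only gene beyond a dotted line, and 26 genes lie left of 0.

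Overlapping genes limit some of these values. The handling of strand is not given in the sources used here, and 13 of the 35 genes share exon bases with a gene on the opposite strand. The overlaps with a partner above 10 TPM are those of Unc13a with Colgalt1 (495 bases; Colgalt1 at 36.3 and 31.7 TPM), Syn3 with Timp3 (1733 bases; Timp3 at 16.1 and 16.7), Rab3a with Mpv17l2 (29 bases; Mpv17l2 at 24.3 and 20.8) and Syn1 with Araf (9 bases; Araf at 82.5 and 77.2). For these genes, reads of gene and partner in the shared stretch cannot be told apart without strand. Expected counts were whole, within 0.005, for 27 of the 35 genes and not whole for Syt11, Nrxn3, Syp, Nrxn2, Syt4, Syn3, Unc13a and Pclo, so for these 8 some reads were divided with other genes.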

How the data were processed

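Total RNA-seq was measured in 2 libraries of 1 group. The notes deposited with the tables name mm10, its transcriptome and GENCODE M4. The aligner, quantifier, read filters and strand setting, not given in the sources used here, could not be checked. Expected counts, estimated by dividing ambiguous reads, were deposited by the authors for genes and transcripts. The deposited TPM, with a posterior mean TPM per the file headers, are shared out over a table with its spike-ins, which held 13.0% and 12.7%, so mouse levels are understated by that share. The deposited FPKM scale by length and depth.

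Gene names, transcript types and coordinates came from GENCODE M21 by stable identifier (42462 of 43346 matched). Members, lists and roles were chosen with earlier results of these data known. All 35 genes are named, and of the other presynaptic list the 6 highest and 3 lowest. Isoforms were named from 20% of a gene's TPM, and 8 genes were described in any case. Not every such isoform is printed. Expected counts were rounded and scaled with edgeR 4.0.16 (TMM; R 4.3.3), without a test, because 1 library stood on each side; DESeq2 1.42.0 size factors were an alternative. The ratio (0.5 added to each count) and its interval were tested on simulated data. Genes needed 10 counts summed. A peripheral neuron marker of the fixed list is not reported here. Replicates are separate pools, and SD over 2 libraries measures their spread only.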

Additional observations from a re-analysis of the deposited data

How the results depend on the processing

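The count of 33 genes at 1 TPM or more was 35 at a threshold of 0.5 TPM, 25 at 5 TPM and 34 with posterior mean TPM, and 1 gene differed 2-fold or more between libraries under each scaling and count filter tried. Median levels of the roles (log2 of value plus pseudocount) moved more than the spread of 2 libraries in these cases. With FPKM they were 3.10 for SNAREs, 2.64 for calcium sensors and complexins, 2.76 for vesicle proteins, 2.21 for active zone and 2.61 for endocytosis. With a pseudocount of 0.1 they were 3.09 for calcium sensors and complexins, 3.23 for vesicle proteins, 2.57 for active zone and 3.05 for endocytosis. With posterior mean TPM they were 3.20, 2.86 and 3.32 for calcium sensors and complexins, active zone and endocytosis. Calcium sensors and complexins were 3.45 with only detected genes, and 3.45 without genes overlapped on the opposite strand, where vesicle proteins were 3.13, active zone 2.35 and endocytosis 2.97. With protein-coding transcripts only, an alternative added after seeing the data, SNAREs were 2.95, active zone 1.88 and endocytosis 3.05. The count of detected genes with under 50% from protein-coding transcripts was 4 by TPM and 2 by expected counts, also added after seeing the data. Beyond the changes of scale and of transcripts used that these settings make by construction, the cause was not tested. The active zone was lowest in every case listed. Leaving out a library cannot move a mean of 2 beyond their SD, so it says nothing on stability. No paired analysis was possible because the study has 1 group. Depth limits Syt2 and Sv2c most: 43 and 83 counts (31.1 to 57.9 and 66.1 to 103) and 54 and 34 counts (40.6 to 70.5 and 23.6 to 47.5).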
